A study of Mus musculus with 12 samples.

Results

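The natriuretic peptide and gap junction genes that hold the oocyte in meiotic arrest were followed in mouse granulosa cells, as 8 genes chosen by symbol: Nppc, Npr2, Npr3, Prkg1, Gja1, Gja4, Impdh1 and Impdh2. Of these, 7 were measured by a probe set naming only that gene, among 18193 such genes, and Impdh2 was not analysed here. Each gene was read from its brightest one-gene probe set, by the mean of all arrays, and its other such probe sets served as a check.

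RNA of laser-captured granulosa cells from preovulatory follicles of mice aged 3 weeks was hybridised to 12 one-colour arrays, in 4 groups of 3. Wild-type (WT) or bERKO mice, which lack a working estrogen receptor beta gene (Esr2), received either pregnant mare serum gonadotropin (PMSG) for 48 h or the same PMSG treatment and then human chorionic gonadotropin (hCG), with cells taken 4 h after hCG. Every group therefore carried PMSG, which acts like follicle-stimulating hormone, and hCG stood in for the luteinizing hormone surge. Arrays of a group carry the label of biological replicates, without the number of mice pooled for each, so p-values measure the spread between arrays.

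In the antral follicle, granulosa cells secrete C-type natriuretic peptide, and its receptor guanylyl cyclase in the cells around the oocyte turns GTP into cyclic GMP. Cyclic GMP passes through connexin channels between granulosa cells and into the oocyte, where it restrains a phosphodiesterase and so keeps cyclic AMP high and meiosis stopped. Luteinizing hormone is known to lower the peptide, the cyclase activity and the coupling, and the oocyte then resumes meiosis.

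Levels are given as log2(intensity + 16) after quantile normalization, so a value of 4 is the floor of the scale, and a change between dim values is understated. Changes are differences of group means with their standard errors, tested with limma over all 18193 genes, with Benjamini-Hochberg adjusted p-values and a threshold of 0.05. The arrays had median intensities of 49.1 to 112.4, and 18.7% to 30% of their probe sets lay under an intensity of 16. The Gapdh 3'/5' control ratio, a sign of RNA quality, was 32.16 for WT hCG replicate 1 and 23.74 for bERKO PMSG replicate 3, against 4.72 to 11.19 elsewhere. Esr2 averaged 9.56 ± 0.69 and 8.99 ± 0.46 in WT and 8.32 ± 0.28 and 8.33 ± 0.20 in bERKO (SD, n = 3, PMSG then hCG), with neither genotype difference passing the test (adjusted p = 0.307 and 0.397). Esr2 was nevertheless lower on every bERKO array (8.13 to 8.64) than on any WT array (8.68 to 10.33). Whether its probe set lies in the deleted stretch is not known here, so it does not check the labels.

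The promoters of Nppc and Npr3 are shown because among the 7 measured genes only these 2 passed a test within a genotype or treatment. Each line is the 250 bases before the RefSeq start in GRCm38.p6, read 5' to 3' on the minus strand, chr1:86670574-86670823 for Nppc and chr15:11907372-11907621 for Npr3. Capitals mark matches to the motifs described next.
Nppc: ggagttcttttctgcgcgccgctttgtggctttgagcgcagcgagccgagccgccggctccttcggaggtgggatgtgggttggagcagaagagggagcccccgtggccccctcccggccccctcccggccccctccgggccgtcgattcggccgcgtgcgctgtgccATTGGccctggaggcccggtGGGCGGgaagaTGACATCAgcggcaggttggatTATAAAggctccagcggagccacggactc
Npr3: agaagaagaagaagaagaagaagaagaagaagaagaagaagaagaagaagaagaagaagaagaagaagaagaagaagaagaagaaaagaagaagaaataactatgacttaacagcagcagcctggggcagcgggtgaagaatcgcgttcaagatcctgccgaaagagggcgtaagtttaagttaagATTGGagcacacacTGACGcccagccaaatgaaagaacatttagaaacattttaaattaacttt

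The Nppc window was 69.2% GC and the Npr3 window 38.8%, against a median of 52.4% over all promoter windows. Nppc held a TATA box (TATAAA) 29 bases before its start, a motif found in 12.4% of 32851 promoter windows of 250 bases. It also held a GC box (GGGCGG, 32.7% of windows) 62 bases before the start and a CCAAT box on the other strand (ATTGG, 33.8%) at 82 bases. Its TGACATCA, 51 bases before the start, matched the cyclic AMP response element written with 1 open base (TGACNTCA, 7.49%), a pattern that also takes the full element TGACGTCA (1.55%). Npr3 held the response element's first letters (TGACG, 17.8%, also part of the full element) 50 bases before its start and ATTGG at 64 bases. TATAAA was not among the letters of the Npr3 window, and the estrogen response element GGTCANNNTGACC (0.0639% of windows) was in neither. The far end of the Npr3 window ran through 28 GAA units, and 4 windows of all promoters (0.0122%) held a run as long. Both strands were searched, and these matches describe letters only.

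Nppc, the ligand, was at overlapping levels in 3 groups and lowest in bERKO cells after hCG. Its intensities were 3004, 1683 and 3144 in WT PMSG and 3449, 4177 and 1812 in bERKO PMSG. They were 8580, 2171 and 2087 in WT hCG and 855, 345 and 575 in bERKO hCG. Every bERKO hCG array lay below the other 9, while the remaining groups overlapped. On the log2 scale Nppc averaged 11.75 ± 1.14 in WT hCG, 11.52 ± 0.63 in bERKO PMSG, 11.29 ± 0.51 in WT PMSG and 9.22 ± 0.63 in bERKO hCG (SD, n = 3).

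The genotype difference of Nppc after hCG was -2.53 ± 0.56 (95% interval -3.75 to -1.32, adjusted p = 0.0355), and the change with hCG in bERKO cells was -2.30 ± 0.56 (adjusted p = 0.0143). Both tests rest on the same 3 bERKO hCG arrays. In WT cells the change with hCG was 0.46 ± 0.56 (adjusted p = 0.754), and the genotypes differed by 0.23 ± 0.56 after PMSG (adjusted p = 0.934). The difference between the 2 hCG responses, -2.76 ± 0.79, did not pass (95% interval -4.48 to -1.04, adjusted p = 0.116). WT hCG replicate 1, the array with the highest Gapdh ratio, carried the highest Nppc value, and without it the genotype difference was -1.88 (adjusted p = 0.0937). That call was also lost without WT PMSG replicate 1 (adjusted p = 0.0505) or any 1 bERKO hCG array (0.0648, 0.118 and 0.0883 in the order of replicates), and the bERKO hCG response without bERKO hCG replicate 2 (0.0591).

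**Figure D1:**
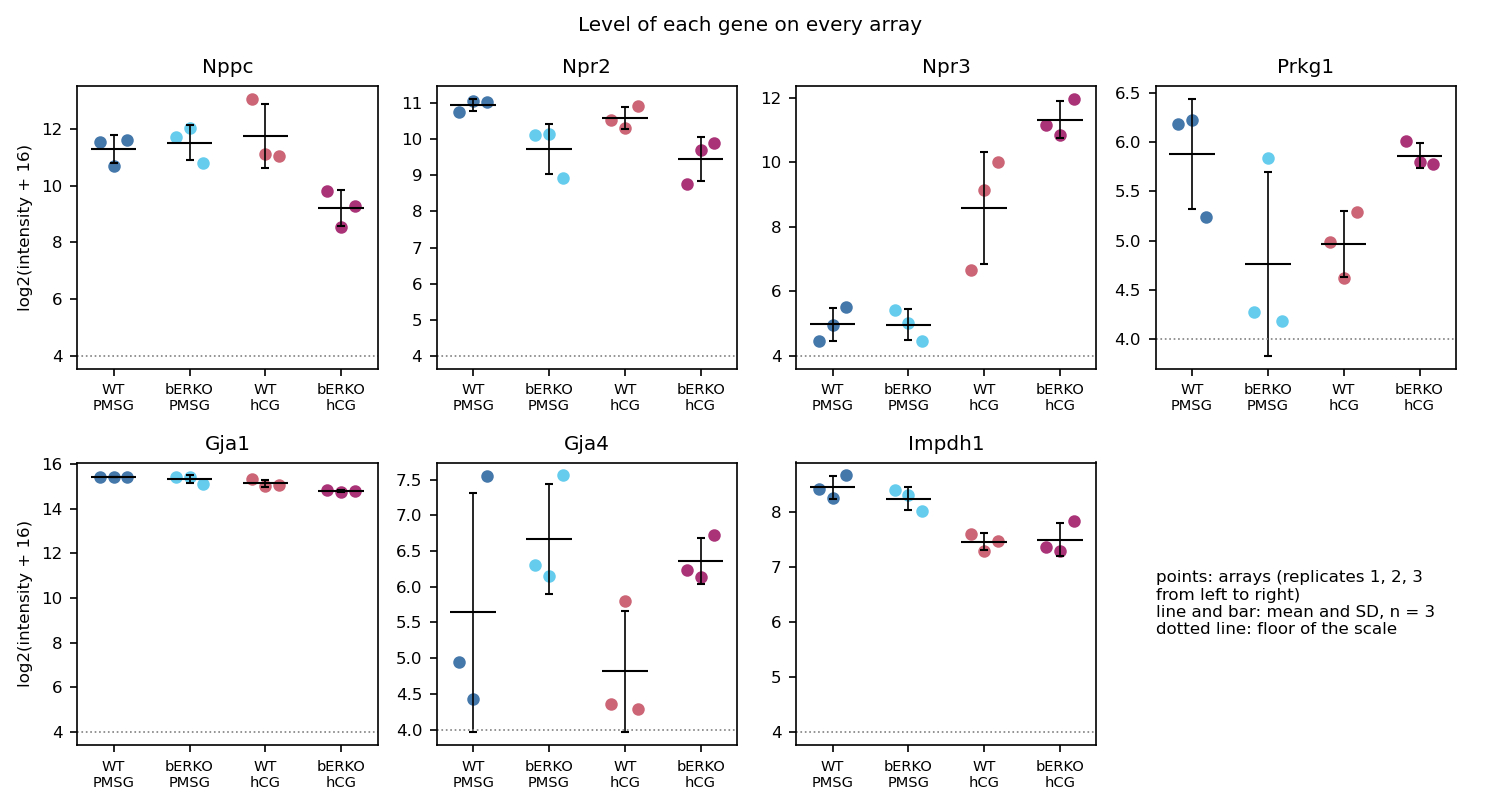
Level of each measured gene as log2(intensity + 16) after quantile normalization, 1 point per array (replicates 1 to 3 from left to right), with lines for the group mean and bars for the SD (n = 3). Nppc is lowest on the 3 bERKO hCG arrays, Npr2 is lower in bERKO under both treatments, and Npr3 is near the floor of 4 after PMSG and highest in bERKO after hCG.

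Npr2, the guanylyl cyclase that binds C-type natriuretic peptide, was lower in bERKO than in WT under both treatments, by amounts that did not pass the test. WT intensities were 1731, 2144 and 2103 after PMSG and 1489, 1287 and 1891 after hCG. In bERKO they were 1081, 1128 and 404 after PMSG and 404, 799 and 892 after hCG. The lowest bERKO PMSG value was on replicate 3, the array of that group with the high Gapdh ratio. All 6 bERKO arrays lay below all 6 WT arrays. The group means ran from 10.95 ± 0.17 in WT PMSG and 10.59 ± 0.30 in WT hCG to 9.74 ± 0.70 in bERKO PMSG and 9.45 ± 0.60 in bERKO hCG, and neighbours within a genotype overlapped.

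The genotype difference of Npr2 was -1.22 ± 0.39 after PMSG (95% interval -2.07 to -0.36, adjusted p = 0.357) and -1.14 ± 0.39 after hCG (-1.99 to -0.28, adjusted p = 0.145). Averaged over both treatments, a contrast added after the values were seen, it was -1.18 ± 0.28 (adjusted p = 0.132), when 0.143% of all genes passed that test. The hCG change was -0.36 ± 0.39 in WT (adjusted p = 0.718) and -0.28 ± 0.39 in bERKO (adjusted p = 0.671), with 95% intervals from -1.22 to 0.49 and from -1.14 to 0.57. With single arrays left out, the genotype difference after PMSG ran from -1.43 to -0.81 (adjusted p from 0.221 to 0.612).

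Npr3, the clearance receptor that takes up natriuretic peptides without making cyclic GMP, rose with hCG in both genotypes and moved furthest of the 7 genes. Its intensities were 4.63, 13.7 and 26.7 in WT PMSG and 21.7, 17.2 and 3.53 in bERKO PMSG. After hCG they were 85.0, 585 and 1058 in WT and 2254, 1858 and 4054 in bERKO. No hCG array overlapped a PMSG array, and every bERKO hCG array lay above every WT hCG array. The WT hCG arrays spread widely (8.59 ± 1.74 on the log2 scale, SD, n = 3), with the lowest value on the array of highest Gapdh ratio, and bERKO hCG stood at 11.33 ± 0.58, WT PMSG at 4.97 ± 0.53 and bERKO PMSG at 4.96 ± 0.48.

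The bERKO response of Npr3 was 6.37 ± 0.70, an 82.6-fold rise of intensity + 16 (95% interval 28.8 to 237, adjusted p = 0.000269). In WT it was 3.62 ± 0.70, or 12.3-fold (adjusted p = 0.0262). The genotypes differed by 2.73 ± 0.70 after hCG (95% interval 1.21 to 4.26, adjusted p = 0.0576) and by -0.01 ± 0.70 after PMSG (-1.53 to 1.51, adjusted p = 0.998). The larger rise in bERKO, 2.75 ± 0.98, did not pass the test of the difference of responses (95% interval 0.59 to 4.90, adjusted p = 0.211). Without WT hCG replicate 1 the genotype difference after hCG was 1.76 (adjusted p = 0.111) and the difference of responses 1.77 (adjusted p = 0.246), and without WT hCG replicate 3 the former was 3.44 and passed (adjusted p = 0.023). The bERKO call held under all 22 alternatives, at changes of 5.04 to 7.43. The WT call was lost without any 1 WT PMSG array (adjusted p = 0.109, 0.0858 and 0.0726), without WT hCG replicate 2 (0.111) or 3 (0.0656), with a pseudocount of 1 (0.0547), and in the mean over probe sets (change 2.12, adjusted p = 0.117).

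Npr3 has 3 one-gene probe sets, and tested together with all other such probe sets, 3 of 3 were higher with hCG in bERKO and 1 of 3 in WT. In bERKO they rose by 4.55 to 6.37, and in WT their changes were 1.30 to 3.62. After hCG the genotype difference was 2.73 to 3.02 and passed for 1 of 3 (adjusted p = 0.0487). The dimmer pair in WT stood at 4.59, 6.77 and 8.10 and at 4.86, 7.59 and 7.56 after hCG, so that replicate 1 stayed at the PMSG level there.

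**Figure D2:**
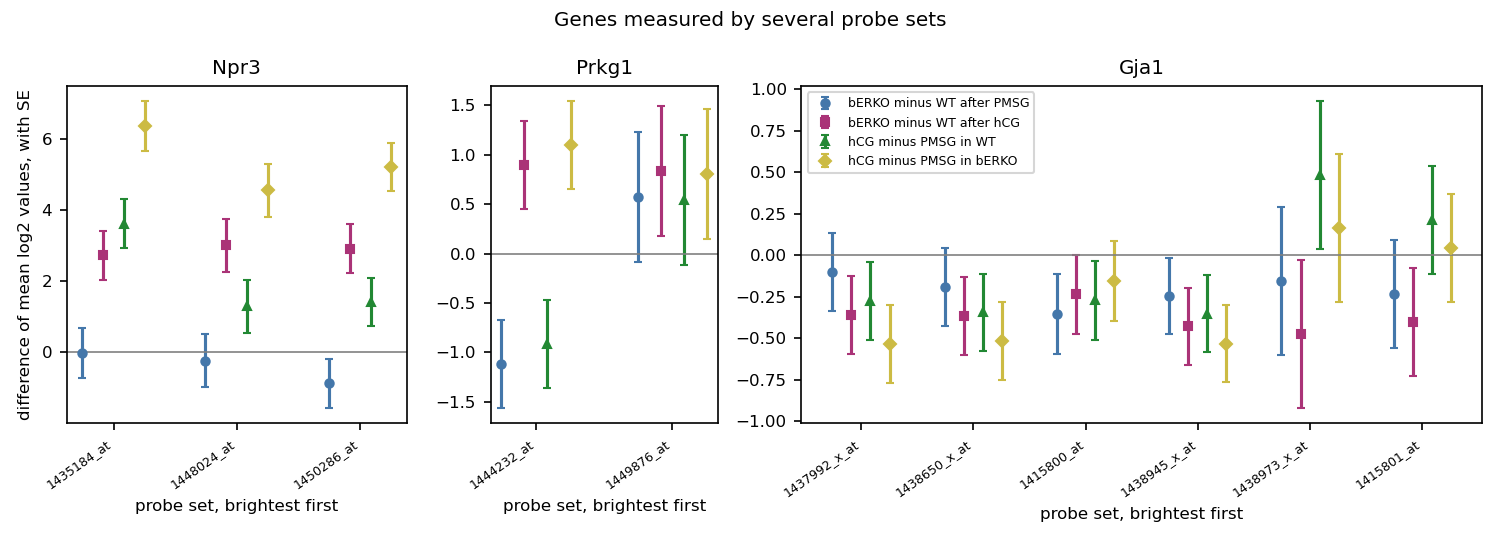
Differences of group means with their SE for each one-gene probe set of Npr3, Prkg1 and Gja1, brightest probe set first, in the 4 comparisons of genotype and of treatment. All Npr3 probe sets lie above 4 for hCG minus PMSG in bERKO, those of Prkg1 differ in sign for WT, and those of Gja1 lie between -0.54 and 0.48.

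Prkg1, which encodes a cyclic GMP-dependent kinase, was dim, with 3 of 12 arrays under an intensity of 16, and passed no test. Its intensities were 49.8, 54.2 and 19.6 in WT PMSG and 2.73, 40.2 and 1.57 in bERKO PMSG. After hCG they were 16.7, 10.2 and 30.3 in WT and 50.6, 41.2 and 48.7 in bERKO. The bERKO hCG arrays lay above the WT hCG arrays, and the PMSG groups overlapped. The hCG change was -0.91 ± 0.44 in WT (adjusted p = 0.318) and 1.10 ± 0.44 in bERKO (adjusted p = 0.105), and the responses differed by 2.01 ± 0.62 (adjusted p = 0.143).

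That difference of responses passed without bERKO PMSG replicate 2 (2.55, adjusted p = 0.0361), as did the bERKO response (1.64, adjusted p = 0.0119). The second Prkg1 probe set gave a WT change of 0.54 and a difference of responses of 0.26, so the opposite directions belong to 1 probe set. Both probe sets gave a higher level in bERKO than in WT after hCG, by 0.83 and 0.90, neither passing. Group means of Prkg1 ran in the order WT PMSG (5.88 ± 0.56), bERKO hCG (5.86 ± 0.12), WT hCG (4.97 ± 0.34) and bERKO PMSG (4.76 ± 0.93), where the middle pair did not overlap.

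Gja1, the main connexin between granulosa cells, was among the brightest probe sets on every array, at ranks 1 to 48 of 45037. Intensities were 39431, 39021 and 38738 in WT PMSG, 54215, 38936 and 44284 in bERKO PMSG, 47433, 28108 and 28643 in WT hCG, and 30718, 25155 and 28454 in bERKO hCG. The 3 bERKO hCG arrays lay below all the WT PMSG and bERKO PMSG arrays. Quantile normalization gives the same value to the same rank, so Gja1 stood at 15.41 on all 3 WT PMSG arrays, and its SD there does not measure the spread between arrays.

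The hCG change of Gja1 was -0.54 ± 0.22 in bERKO (95% interval -1.02 to -0.05, adjusted p = 0.117) and -0.28 ± 0.22 in WT (adjusted p = 0.592). Its genotype difference was -0.36 ± 0.22 after hCG (adjusted p = 0.449) and -0.10 ± 0.22 after PMSG (adjusted p = 0.926), the latter 0.22 as deposited and 0.47 with arrays centred on their medians. The bERKO response passed with median-centred arrays (-1.05, adjusted p = 0.0473), a pseudocount of 64 (-0.54, 0.0262) or dim genes left out (-0.54, 0.0440). None of the 6 probe sets of Gja1 passed in any of the 5 comparisons, and they ranged from -0.35 to 0.48 for the WT response and from -0.54 to 0.17 for the bERKO response.

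Gja4, the connexin of the oocyte's own side of the junction, was dim and passed no test. Its intensities were 12.2, 5.05 and 177 in WT PMSG, 51.5, 53.0 and 113 in bERKO PMSG, 4.95, 47.1 and 4.67 in WT hCG, and 61.3, 56.0 and 99.0 in bERKO hCG. The arrays of both bERKO groups lay above the WT hCG arrays, and the other pairs of groups overlapped. The genotype difference was 1.55 ± 0.72 after hCG (95% interval -0.03 to 3.13, adjusted p = 0.3) and 1.03 ± 0.72 after PMSG (adjusted p = 0.714).

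The highest Gja4 levels, 7.56 on bERKO PMSG replicate 3 and 7.55 on WT PMSG replicate 3, were on the arrays of each group with most oocyte marker signal. The mean log2 level of 13 oocyte markers such as Zp3 and Gdf9 was 9.91 and 8.22 on these arrays, against 8.62 and 8.45 on the other bERKO PMSG arrays and 5.73 and 6.06 on the other WT PMSG arrays. In bERKO hCG and WT hCG, too, the highest Gja4 level (6.73 on replicate 3 and 5.80 on replicate 2) was on the array with the highest oocyte mean (7.54 and 6.50). The summed intensity of the list was 7218 to 20659 in bERKO PMSG, 667 to 5698 in WT PMSG, 1319 to 3325 in bERKO hCG and 685 to 1397 in WT hCG. Its part in the Gja4 values was not tested, and in such samples fewer cells of a type and less RNA per cell cannot be told apart.

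Impdh1, an enzyme of the rate-limiting step of guanine nucleotide synthesis, which supplies GTP to the cyclase, was lower after hCG in both genotypes. Its intensities were 329, 297 and 407 in WT PMSG and 307, 299 and 176 in bERKO PMSG. After hCG they were 178, 168 and 204 in WT and 148, 142 and 208 in bERKO. On the normalized scale every PMSG array (8.02 to 8.67) lay above every hCG array (7.30 to 7.84), and the lowest PMSG value was on the bERKO array of high Gapdh ratio. As deposited, that array's 176 lay within the range of the hCG arrays.

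The change of Impdh1 was -0.99 ± 0.25 in WT (adjusted p = 0.0701) and -0.74 ± 0.25 in bERKO (adjusted p = 0.0613), and neither passed alone. Averaged over both genotypes, a contrast added after the values were seen, the fall of -0.87 ± 0.18 passed (95% interval -1.26 to -0.47, adjusted p = 0.00609), in a test that 19.2% of all genes passed. It passed under all 22 alternatives, between -1.02 and -0.71. The genotypes differed by -0.20 ± 0.25 after PMSG and 0.04 ± 0.25 after hCG (adjusted p = 0.857 and 0.954), and the responses by 0.24 ± 0.36 (95% interval -0.54 to 1.03, adjusted p = 0.799). The WT response passed with a pseudocount of 64 (adjusted p = 0.0259), dim genes left out (0.0229) or array weights (0.0135), and the bERKO response under 6 of 22 alternatives.

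Counted over the 7 genes, 0 differed between genotypes after PMSG, when 0.011% of all genes did, and 2 had an unadjusted p under 0.05 (Npr2 and Prkg1), as did 1733 of all genes. After hCG 1 differed (Nppc, lower), against 3.09% of all genes and 1.54% lower. With hCG, 1 of 7 changed in WT (Npr3), against 2.08% of all genes and 0.731% higher, and 2 of 7 in bERKO (Npr3 higher, Nppc lower), against 18.9% of all genes, 7.05% higher and 11.9% lower. Averaged over both genotypes, Npr3 was higher and Impdh1 lower, against 6.71% and 12.5% of all genes. The hCG responses differed for 0 of 7, against 1.31% of all genes, and 3 had an unadjusted p under 0.05 (Nppc, Npr3 and Prkg1), as did 2783 of all genes.

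On the normalized scale, groups did not overlap for 6 of 7 genes between genotypes after hCG, where this held for 24.5% of all genes, 11.4% higher and 13.2% lower. The 6 were 3 higher (Npr3, Prkg1, Gja4) and 3 lower (Nppc, Npr2, Gja1). After PMSG it was 1 of 7 (Npr2, lower), against 14.7% of all genes and 6.58% lower. Between treatments it was 3 of 7 in WT (Npr3 higher, Gja1 and Impdh1 lower), against 24% of all genes, 8.79% higher and 15.2% lower. In bERKO it was 4 of 7, with Nppc added to the lower ones, against 36.2%, 13.3% higher and 22.9% lower. In the deposited intensities it was 5 of 7 between genotypes after hCG and 2 of 7 between treatments in WT, since Gja1 overlapped in both. In bERKO it was again 4 of 7, with Prkg1 (higher) in place of Impdh1. The shares of all genes given here are for the normalized scale. None was worked out for the deposited intensities, so those counts have no share to be set against. The median genotype difference of the 7 after hCG was 0.04, against -0.06 over all genes, and the median hCG change was -0.36 in WT and -0.31 in bERKO, against -0.08 and -0.19.

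**Figure D3:**
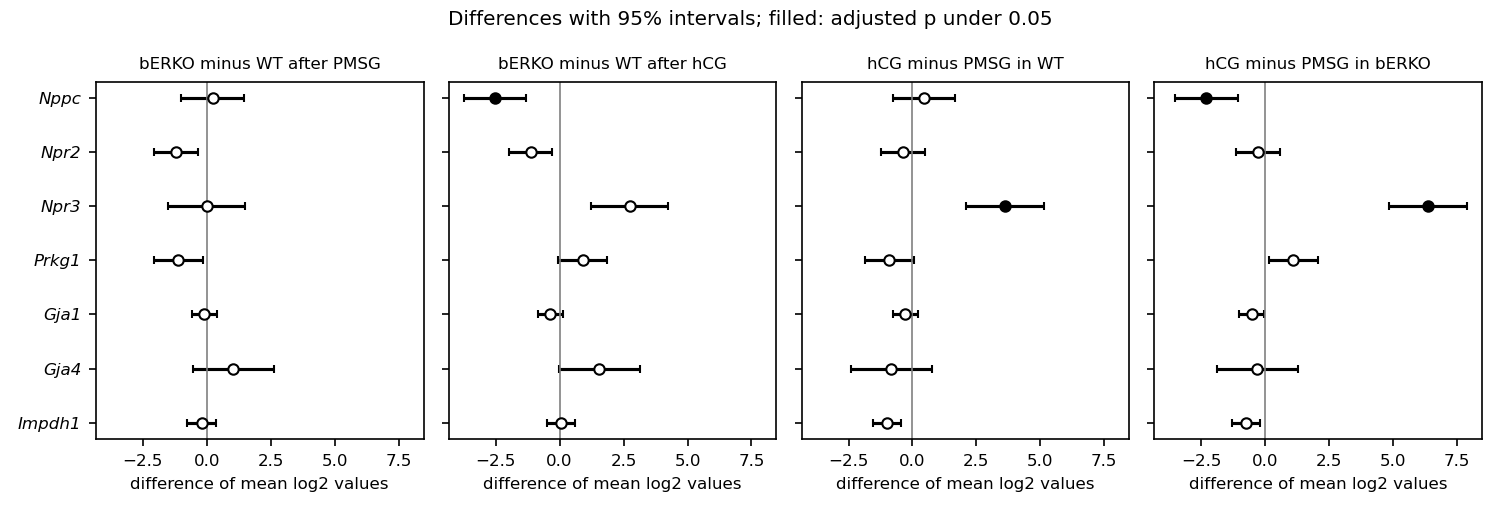
Differences of mean log2 values with 95% intervals for the 7 genes in the 4 comparisons of genotype and of treatment, with filled points for an adjusted p under 0.05 (limma). Filled points are Nppc for genotype after hCG, Npr3 for hCG in WT, and both genes for hCG in bERKO.

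Other genes of natriuretic peptide and cyclic GMP signalling, a list of 26 with 24 measured, had most of their calls in the hCG response of bERKO cells, as did all genes. There 6 rose and 2 fell with hCG, when 18.9% of all genes changed, against 1 and 0 in WT, when 2.08% did, and the list's median change was 0.30 in bERKO and 0.16 in WT. Between genotypes after hCG, 2 were higher and 2 lower, when 3.09% of all genes differed, and after PMSG none differed. Because the difference of responses passed for 1 of the 24, against 1.31% of all genes, the counts alone do not show which genes responded unequally.

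Npr1, the receptor for the atrial and brain natriuretic peptides, stood at 8.29, 8.34 and 8.97 in bERKO hCG and at 4.16 to 6.10 on the other 9 arrays. It was higher in bERKO than in WT after hCG by 3.16 ± 0.50 (adjusted p = 0.00952) and rose with hCG in bERKO by 3.85 ± 0.50 (adjusted p = 0.000559). Its WT change was 0.88 ± 0.50 (adjusted p = 0.405), and the difference of responses, 2.96 ± 0.70, had an adjusted p of 0.0644. The genotype call was lost with a pseudocount of 1 (adjusted p = 0.0939).

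Prkg2, another cyclic GMP-dependent kinase, rose in bERKO by 6.93 ± 0.93 (adjusted p = 0.000687) to 12.57, 12.59 and 12.43. In WT hCG it stood at 6.90, 9.11 and 12.03, above all WT PMSG arrays (5.53 to 6.27), for a change of 3.50 ± 0.93 that did not pass (adjusted p = 0.0781). The 3 WT hCG arrays ranked alike for Prkg2 and Npr3, with the array of highest Gapdh ratio lowest in both. The difference of its responses was 3.43 ± 1.32 (adjusted p = 0.242).

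Among phosphodiesterases, which break down cyclic nucleotides, Pde10a rose in both genotypes, by 2.74 ± 0.52 in WT (adjusted p = 0.0257) and 4.03 ± 0.52 in bERKO (adjusted p = 0.000579). The WT call of Pde10a was kept under 14 of 22 alternatives. Pde5a, which is specific for cyclic GMP, rose in bERKO by 1.96 ± 0.56 (adjusted p = 0.0292), and its WT change was 0.63 ± 0.56 (adjusted p = 0.638). Pde3b was higher in bERKO than in WT after hCG by 2.54 ± 0.52 (adjusted p = 0.0266), with arrays at 10.42, 10.10 and 8.72 against 8.06, 6.87 and 6.68, a call kept under 17 of 22 alternatives.

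Gucy1a1, a subunit of the soluble guanylyl cyclase that responds to nitric oxide, was the gene of this list whose hCG responses differed between genotypes. It stood at 10.35, 9.26 and 9.86 in WT PMSG, 10.35, 10.51 and 11.06 in bERKO PMSG, 11.15, 11.07 and 10.80 in WT hCG, and 9.30, 9.48 and 8.62 in bERKO hCG. It fell with hCG in bERKO, at a change of -1.51 ± 0.34 (adjusted p = 0.0108), while its WT change was 1.18 ± 0.34 (adjusted p = 0.102). The responses differed by -2.69 ± 0.49 (adjusted p = 0.0251), a call kept under 13 of 22 alternatives.

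**Figure D4:**
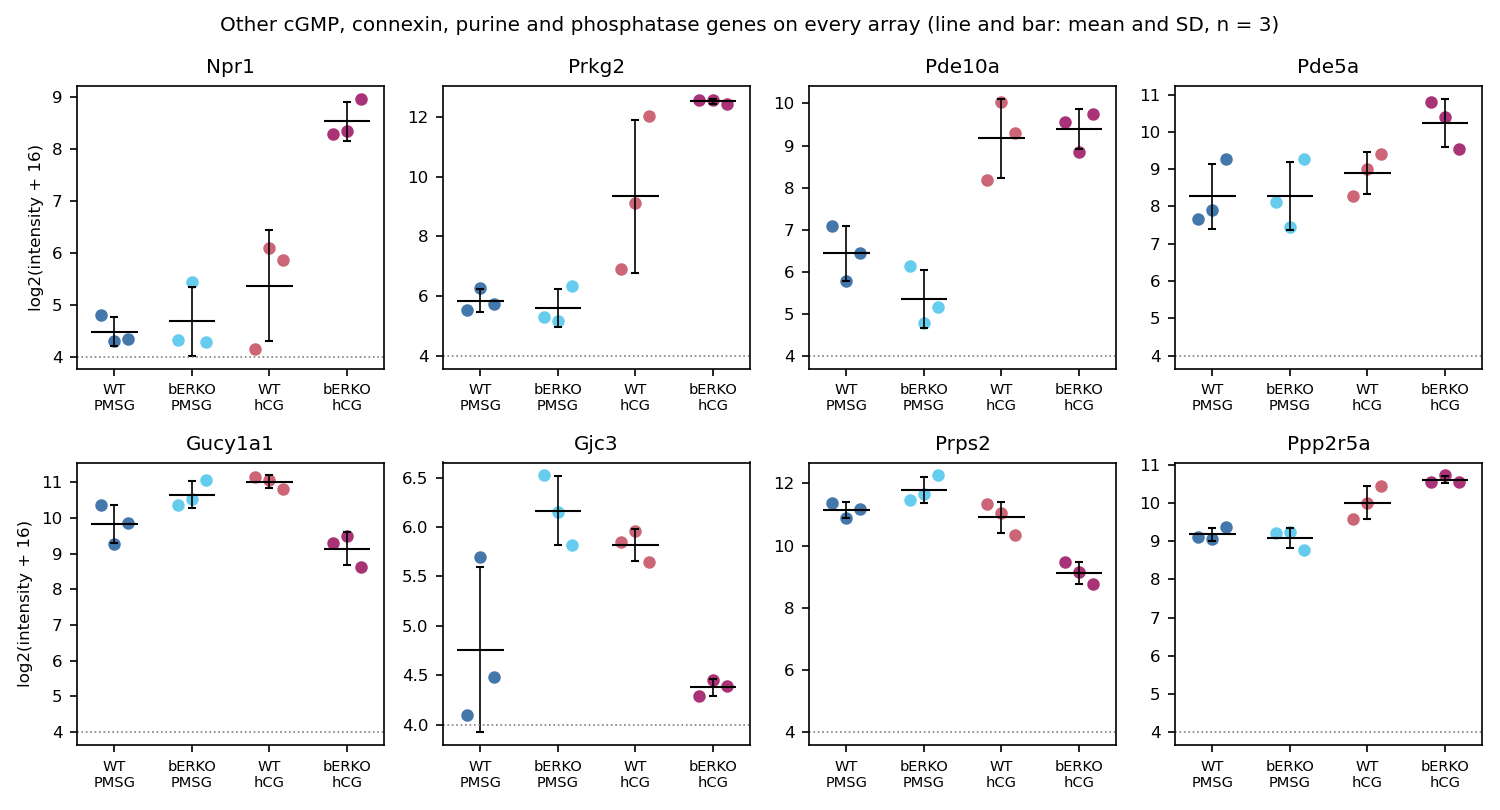
Levels as log2(intensity + 16) of 8 genes from the surrounding pathways, 1 point per array, with lines for the group mean and bars for the SD (n = 3). Npr1, Prkg2 and Pde5a are highest in bERKO after hCG, Pde10a is higher after hCG in both genotypes, and Gucy1a1, Gjc3 and Prps2 have their lowest group mean in bERKO after hCG.

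Other gap junction genes, 17 measured of 24, gave 0 calls between genotypes and 0 for hCG in WT. In bERKO 0 rose and 2 of 17 fell, near the share of all genes that fell (11.9%). The 2 were Cnst, which encodes a connexin-recycling protein (-1.81 ± 0.40, adjusted p = 0.0087), and the connexin Gjc3 (-1.79 ± 0.37, adjusted p = 0.00681). The responses of Gjc3 differed by -2.85 ± 0.53 (adjusted p = 0.0285), between group means of 4.38 and 6.17 near the floor, and that call was kept under 10 of 21 alternatives. The list's median bERKO response was -0.20, against -0.19 over all genes.

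Genes of purine nucleotide synthesis, 22 measured of 23, formed a list that also held salvage and breakdown enzymes such as Hprt, Gda and Xdh. They gave 7 lower and 1 higher in bERKO cells given hCG, where 11.9% of all genes were lower and 7.05% higher. Their median change there was -0.60, against -0.19 over all genes, and in WT it was -0.08, against -0.08 over all genes. In WT 1 of the 22 was lower, when 2.08% of all genes changed. It was Nme1, a nucleoside diphosphate kinase (-1.32 ± 0.29, adjusted p = 0.0447). Prps2, which makes the ribose phosphate donor of the pathway, stood at 9.48, 9.14 and 8.77 in bERKO hCG and at 10.35 to 12.26 on all other arrays. It fell with hCG in bERKO, at a change of -2.67 ± 0.34 (adjusted p = 0.000495), and its responses differed by -2.44 ± 0.47 (adjusted p = 0.0345), a call kept under 8 of 22 alternatives.

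Gart and Guk1, an enzyme of purine ring synthesis and the guanylate kinase, also fell in bERKO, at changes of -1.42 ± 0.33 (adjusted p = 0.0109) and -1.08 ± 0.26 (adjusted p = 0.014). Between genotypes after hCG, Prps2 (-1.78 ± 0.34, adjusted p = 0.0192) and the ring-synthesis enzyme Pfas (-0.97 ± 0.23, adjusted p = 0.0478) were lower in bERKO. The Pfas call was kept under 5 of 22 alternatives, and that of Nme1 under 7.

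The 13 protein phosphatase genes, whose family is known to act on the NPR2 protein after luteinizing hormone, were all measured. With hCG in bERKO 2 of the 13 rose, when 7.05% of all genes did. The regulatory subunit gene Ppp2r5a rose by 1.53 ± 0.28 (adjusted p = 0.00309), from 8.78 to 9.25 across bERKO PMSG arrays to 10.55, 10.72 and 10.56, and held under all 22 alternatives. The catalytic subunit gene Ppp2ca rose by 0.78 ± 0.24 (adjusted p = 0.0408), a call kept under 6 of 22. No phosphatase gene of the list passed for hCG in WT, for genotype under either treatment or for the difference of responses, and their median hCG change was 0.10 in WT and 0.21 in bERKO. Ppp2r5a stood at 9.06 to 9.37 in WT PMSG and at 9.57 to 10.44 in WT hCG, without overlap.

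Of 10 measured genes of the oocyte's cyclic AMP and meiotic control, of 11 listed, the stimulatory G protein gene Gnas rose in bERKO with hCG by 1.12 ± 0.23 (adjusted p = 0.00659). The adenylyl cyclase gene Adcy9 fell there, at a change of -1.71 ± 0.44 (adjusted p = 0.0191), and was lower in bERKO than in WT after hCG (-1.84 ± 0.44, adjusted p = 0.0473), the latter kept under 6 of 22 alternatives. In WT, Cdk1, the kinase of entry into M phase, fell with hCG, at a change of -1.33 ± 0.27 (adjusted p = 0.0327), kept under 13 of 22.

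The genes nearest to each member in pattern were found by the mean absolute difference of log2 values over the 12 arrays, after centring each gene on its own mean. Genes with provisional symbols, such as those with Gm, Rik or LOC, were left out. For Npr3 the nearest were Rnd3 (0.42), Srxn1 (0.45) and Egln3 (0.50), against a median of 2.72 over the genes kept. The nearest genes lie below that median by the way they were picked. For Nppc they were Enkd1 (0.40), Ifitm2 (0.40) and Zfp362 (0.41), against 1.0. Npr2 was nearest to Scgb3a1 (0.20), Aarsd1 (0.24) and Krt222 (0.26), against 0.75. Prkg1 was nearest to Nxt2 (0.27), Igsf11 (0.29) and Apaf1 (0.29), against 0.76, and Gja4 to Ftx (0.48), Wfdc2 (0.51) and Nlrp4e (0.51), against 1.03. The group means of Gja1 and Impdh1 spanned less than 1 on the log2 scale, and no nearest genes were drawn for them.

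The mean of the granulosa markers was high on every array, at 10.53 to 11.39 over 11 genes of 12 listed, with Inha, Inhba and Nr5a2 among the bright ones. Not all were bright, and 0 to 2 of the 11 lay under an intensity of 16 on each array. The lowest means, 10.53 to 10.57, were on the 3 bERKO hCG arrays, where Nppc was also lowest. After hCG, Fshr (-2.62 ± 0.50, adjusted p = 0.0207) and Foxl2 (-1.71 ± 0.37, adjusted p = 0.0343) were lower in bERKO than in WT. These were 2 of the 11 markers, when 1.54% of all genes were lower. The other 9 did not pass, and 4 of the 11 had a higher mean in bERKO. The part of the granulosa markers in the Nppc difference was not tested.

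Endothelial markers moved with the bERKO hCG group, in which Npr1 and Npr3 were highest. Their list mean over 12 genes was 7.32, 7.66 and 6.79 there and 5.45 to 6.25 on the other arrays, and the summed intensity was 1657 to 3274 against 469 to 1036. In bERKO hCG, 4 of 12 were higher than in WT hCG and 5 of 12 higher than in bERKO PMSG, among them Cdh5 and Emcn. Of all genes, 3.09% differed between genotypes after hCG, and 7.05% were higher with hCG in bERKO. Under an intensity of 16 were 0 to 2 of the 12 on the bERKO hCG arrays and 0 to 4 on the others, and no marker gene of any list lay under 16 on all 12 arrays. Npr3 was highest on bERKO hCG replicate 3, the array of that group with the lowest endothelial mean. Pde5a and Pde3b were lowest of that group on the same array (9.53 and 8.72). In WT hCG, where Npr3 rose, the endothelial means of 5.73, 5.69 and 5.51 lay within or below the range of WT PMSG, 5.63 to 6.25. The part of the endothelial list in the values of all these genes was not tested.

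Stromal and smooth muscle markers, 14 genes, averaged 8.87, 8.76 and 7.66 in bERKO hCG and 5.96 to 8.17 elsewhere. Of these, 3 of 14 were higher in bERKO after hCG than after PMSG, when 7.05% of all genes were higher and 18.9% changed. Leukocyte markers, also 14, averaged 5.79 to 6.75 in bERKO hCG and 5.02 to 6.21 elsewhere, with 2 higher and 1 lower by the same test. Theca and interstitial markers, 6 measured of 9, averaged 10.08 to 10.34 in bERKO hCG and 7.67 to 10.02 elsewhere, with 2 higher and 1 lower. The 6 were Cyp17a1, Cyp11a1, Star, Gli1, Ptch1 and Nr2f2, and whether granulosa cells made them was not tested. Of these 6, only 2 had a higher mean after hCG than after PMSG in bERKO, and 4 a lower one. Their median change was -0.09, against -0.19 over all genes, so the list mean does not stand for the whole list. The part of these lists in the values of the 7 genes was not tested.

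**Figure D5:**
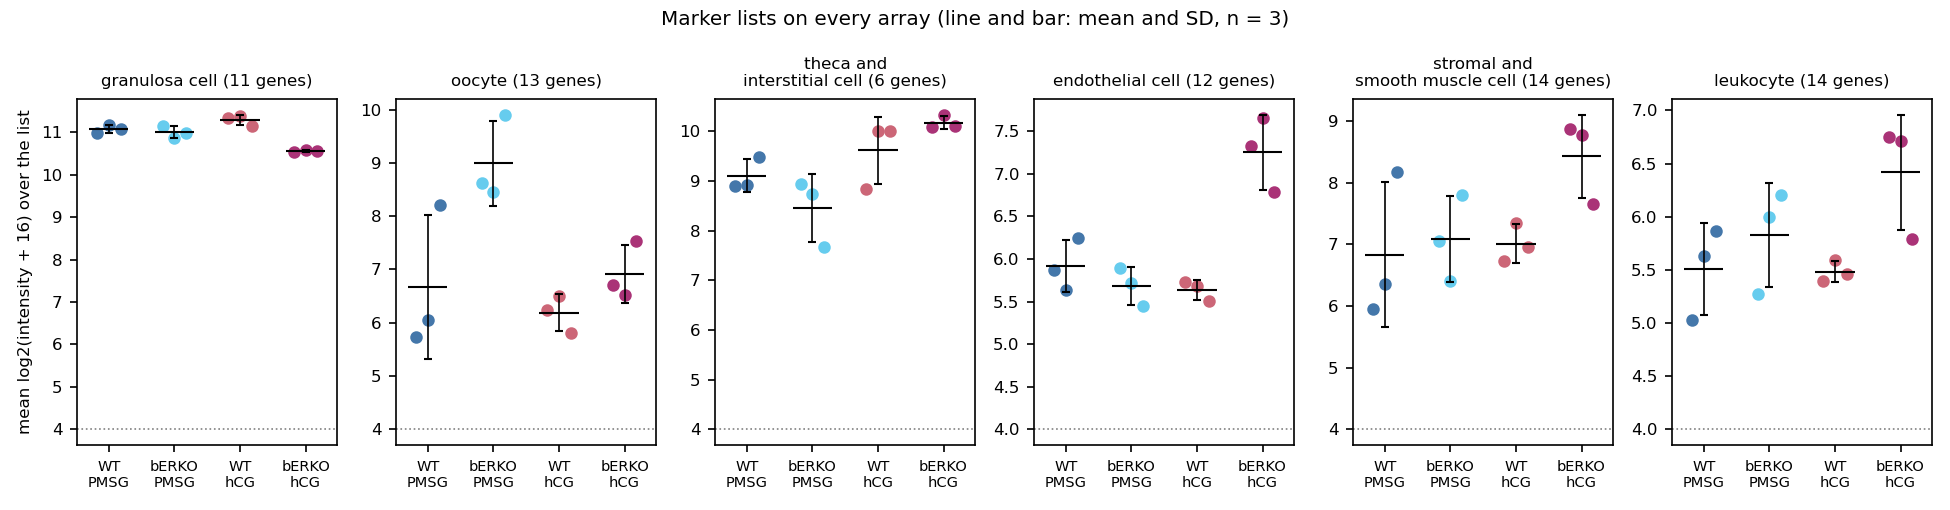
Mean log2(intensity + 16) of each marker list on every array, with lines for the group mean and bars for the SD (n = 3). Endothelial means are highest on the bERKO hCG arrays (6.79 to 7.66), granulosa means lowest there (10.53 to 10.57), and oocyte means highest in bERKO PMSG (8.45 to 9.91).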

How the data were processed

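The authors deposited 1 linear intensity per probe set and array, and each deposited array had a 2% trimmed mean of 500, so the authors had scaled all arrays alike (their software is not given in the labels). Per the labels, RNA was isolated with a PicoPure kit and 25 ng was amplified with NuGEN kits. Of 45101 probe sets, 64 controls were left out, and 34945 named 1 gene. Because array medians spanned 0.98 on the log2 scale, values were quantile normalized and taken as log2(intensity + 16). Group means of all 12 arrays were fitted with limma 3.58.1 (R 4.3.3, eBayes), two-sided, without a filter, and adjusted by Benjamini-Hochberg over 18193 genes in each contrast. The scripts were tested on simulated data. Members, lists and tests were chosen with earlier results of these data known. Named genes were the members, up to 3 passing genes per list and contrast (smallest p), passing markers and the 3 nearest patterns. Genes named beyond that rule (Pde5a) were chosen after their values were seen. Replicate numbers of the labels did not pair the arrays (1 of 18 same-number pairs correlated above 0.1). Promoters came from RefSeq (GRCm38.p6), where all 8 symbols matched. The number of arrays limits the precision. Figures used Python 3.11.15 and matplotlib 3.10.9. The 22 alternatives changed the scaling, pseudocount, filter, probe set rule, weights, block or arrays used.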

Additional observations from a re-analysis of the deposited data

Results flagged for a closer look

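For 3 pathway genes the response to hCG differed between genotypes by limma's interaction test. The difference, bERKO minus WT, was -2.69 for Gucy1a1 (adjusted p = 0.0251), -2.85 for Gjc3 (adjusted p = 0.0285) and -2.44 for Prps2 (adjusted p = 0.0345), as log2 values. With single arrays left out the highest adjusted p was 0.0649, 0.077 and 0.0844. None of the 7 members was picked out in this way, and the largest of their differences by size were -2.76 for Nppc and 2.75 for Npr3.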

How the results depend on the processing

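After PMSG 0 members differed between genotypes under all 22 alternatives. After hCG the count was 1, with 2 for median-centred arrays, a pseudocount of 64, dim genes left out, mean probe sets and array weights (Npr3 added), 0 with a pseudocount of 1 or without the 2 arrays of highest Gapdh ratio, and 0 to 2 with single arrays left out. For hCG in WT it was 1, with 0 for a pseudocount of 1 and mean probe sets, 2 for a pseudocount of 64, dim genes left out and array weights, and 0 to 1 with single arrays left out. For hCG in bERKO it was 2, with 4 for median-centred arrays, a pseudocount of 64 and dim genes left out (Gja1 and Impdh1 added), 3 for mean probe sets, array weights and without the 2 arrays of highest Gapdh ratio (Impdh1 added), and 1 to 3 with single arrays left out. The responses differed for 0 members, and 0 to 1 with single arrays left out. Over all genes the calls were 562, 378 and 3447 of 18193 (genotype after hCG, WT, bERKO). With dim genes left out, which drops Prkg1 and Gja4, they were 752, 910 and 3358 of 9619. They were 535, 397 and 3969 for median-centred arrays and 882, 870 and 3830 for a pseudocount of 64. A pseudocount of 1 gave 225, 140 and 2814, and array weights 1239, 1598 and 3714. Mean probe sets gave 727, 291 and 3475.

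Only changes that passed no test reversed. As deposited, Gja1 differed between genotypes after PMSG by 0.22 and Impdh1 after hCG by -0.15, and Gja4 changed in bERKO by 0.030. Median-centred arrays gave 0.22 for Npr3 and 0.47 for Gja1 after PMSG and -0.0036 for Impdh1 after hCG. Array weights gave 0.10 for Npr3 after PMSG and -0.12 for the difference of Npr2 responses. Without the 2 arrays of highest Gapdh ratio, Npr3 differed by 0.24 after PMSG, Nppc changed in WT by -0.20, Gja4 in bERKO by 0.14, and the Npr2 responses differed by -0.35. With single arrays left out, the ranges were -0.063 to 0.58 for Nppc and -0.27 to 0.26 for Npr3 after PMSG, -0.12 to 0.15 for Impdh1 after hCG, -0.20 to 0.80 for Nppc and -1.43 to 0.13 for Gja4 in WT, -0.57 to 0.14 for Gja4 and -0.69 to 0.059 for Npr2 in bERKO, and -0.32 to 0.42 for Npr2 and -0.44 to 1.12 for Gja4 in the difference of responses. The cause was not tested.

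The median bERKO response of all genes was -0.19, or -0.41 with median-centred arrays and -0.05 as deposited. With the replicate number as a block, the members' counts were 0, 1, 1, 2 and 0, the same genes as without it, and over all genes the replicate block gave 2, 409, 148, 3150 and 129 calls, against 2, 562, 378, 3447 and 239 (PMSG, hCG, WT, bERKO and difference of responses). Over all genes after hCG the calls were 225 with a pseudocount of 1 and 1239 with array weights. Prkg1, Gja4 and Npr3 after PMSG lay near the floor, which limits their changes.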
